A study of Mus musculus with 2 samples.

Results

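The genes described here regulate cell death: the BCL2 family, caspases, the apoptosome, the inhibitors of apoptosis, the adaptors of death receptors, and p53 with its ubiquitin ligase. They were taken by symbol, as every probe set annotated to exactly 1 gene on a list of 35. The rule itself uses no measured value, but the list was drawn up with earlier results of these data known. Of the 35 genes, 32 were on the array, with 85 probe sets, among 18194 genes in all. Bax, Ripk1 and Trp53 are not analysed here. Control T cells from mice were set against T cells exposed to the retinal pigment epithelium (RPE), a pigmented layer that supports the photoreceptors, with 1 Affymetrix array each. Both samples were labelled as from male mice of C57 BL/6 background, 6 weeks old. The title of the control sample names CD4 T cells, while the exposed sample was titled as T cells with no CD4 mark, and its tissue field named the primary cultured RPE. The length and form of the exposure, any stimulation of the T cells, and the number of mice behind each sample were not stated in the labels.

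Apoptosis by the mitochondrial route turns on the BCL2 family. Anti-apoptotic members such as BCL2 and MCL1 hold back the pore-forming effectors BAX and BAK, and BH3-only proteins such as BIM relieve that block. Cytochrome c released through the pores then assembles APAF1 and caspase-9 into the apoptosome, whereas death receptors such as FAS recruit FADD and caspase-8 at the cell surface. In T cells these routes remove activated cells after a response, and cytokine signals keep BCL2 and MCL1 high in the survivors.

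The values are the deposited linear signals, and a log2 difference is always RPE-exposed minus control. Where a gene had several probe sets, the one brightest on average (mean log2 signal) stands for it, and a signal at or under the floor, the array's median (15.9 and 16), was not taken as measured. With 1 array per group the spread between samples is unknown and nothing was tested, so precision is limited by the number of arrays. Differences were therefore counted by size, at 1.5-fold and 2-fold, and set beside the like-level range, which holds the central 95% of log2 differences among genes of similar brightness (the same 1 of 20 bins of mean signal). Probe sets of 1 gene are not replicates, but their disagreement gives a scale, with a pooled SD of 0.24 on the log2 scale over 4769 genes with several measured probe sets, and of 0.27 over the 19 such genes of the death list.

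Signals of T-cell genes were alike on the arrays, those of B cells and antigen-presenting cells were lower after exposure, and those of the RPE were nearly absent. The 12 T-cell markers on the array were all above the floor and summed to 14927.4 in control and 15549.1 in exposed cells, with a median log2 difference of -0.01. The CD8 genes Cd8a (568.8 and 694.6) and Cd8b1 (706.4 and 983.9) were above the floor on both arrays, the one titled as CD4 T cells included, as was Cd4 (287.0 and 271.1). The third gene of the CD8 list, Crtam, was lower after exposure, at 118.3 and 55.7. All 13 B-cell markers above the floor were lower, with a median of -0.66, and the 14 on the array summed to 2835.5 and 1816.3. Of 18 macrophage and dendritic-cell markers above the floor 15 were lower, with a median of -0.45, and the 21 on the array summed to 6831.9 and 5209.0. Of 20 RPE markers, 17 were under the floor on both arrays, among them Rpe65 (5.3 and 2.3) and Rlbp1 (7.0 and 7.5). None of the B-cell, macrophage or RPE markers was at 0 on both arrays.

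Differences of the death regulators between control and RPE-exposed T cells were mostly under 1.5-fold, as were those of most genes on the array. Of the 32 genes, 29 were above the floor on both arrays, Bok and Hrk on 1, and Bik on neither. Of the 31 that could be compared, none was at least 2-fold higher, against 0.437% of the 10996 genes compared, and none at least 2-fold lower, against 0.628%. None was at least 1.5-fold higher (3.13% of all genes), and Casp6 alone was at least 1.5-fold lower (3.87% of all genes), a share near that of the array as a whole. The median log2 difference was -0.10, with the middle of the 31 values running from -0.22 at the lower quartile to 0.07 at the upper, beside a median of -0.01 over all genes compared. Of the 31 genes 20 had a negative difference, or 64.5%, where 51.6% of all genes had one. Regardless of sign, the median size of the difference was 0.20 on the log2 scale for the members and 0.16 for all genes, and 0.17 against 0.13 among genes with a brighter signal of at least 100.

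**Figure D1:**
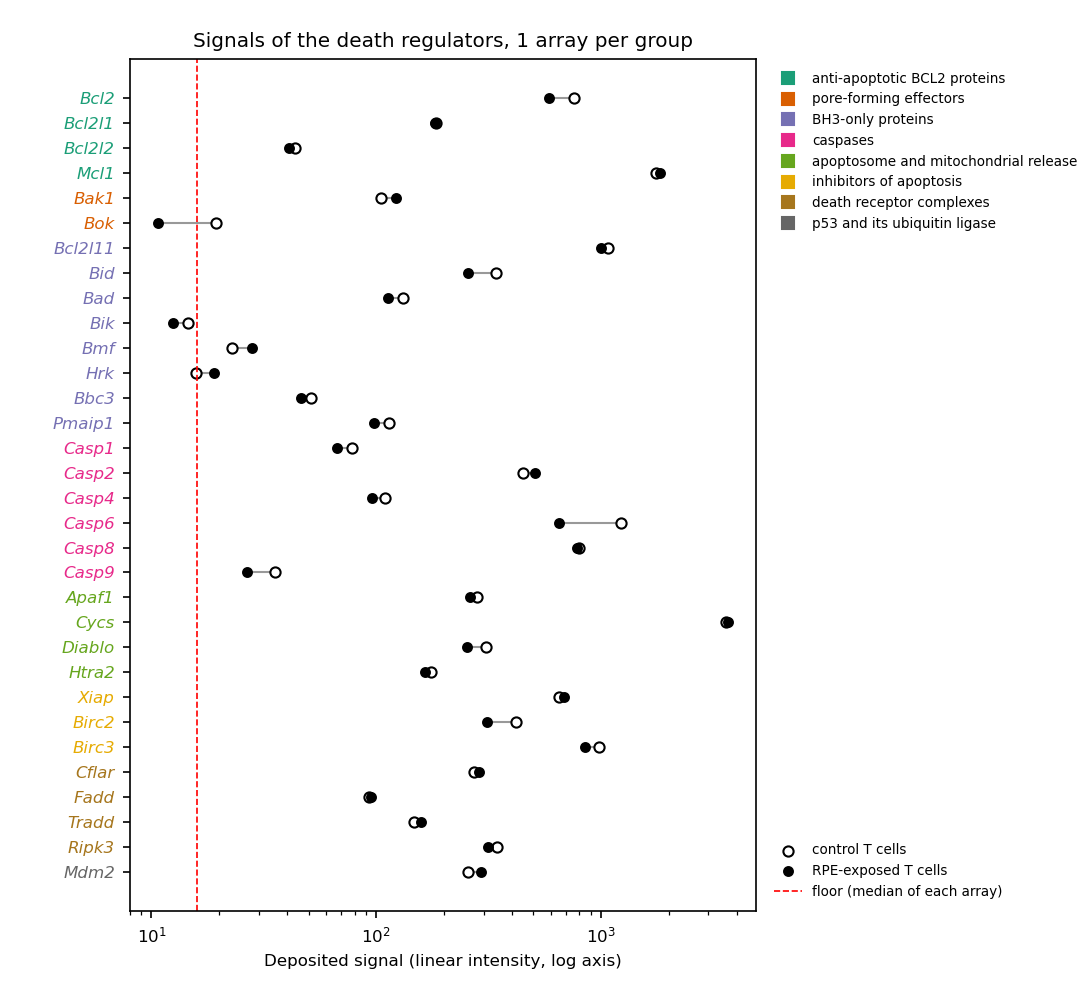
Deposited linear signal (log axis) of the 32 death regulators in control T cells (open circles) and RPE-exposed T cells (filled circles), 1 array each, with the floor as a dashed line and gene names coloured by role. The circles lie close together for most genes, and the gap is widest among bright genes for Casp6, at 1223.8 and 646.9.

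**Figure D2:**
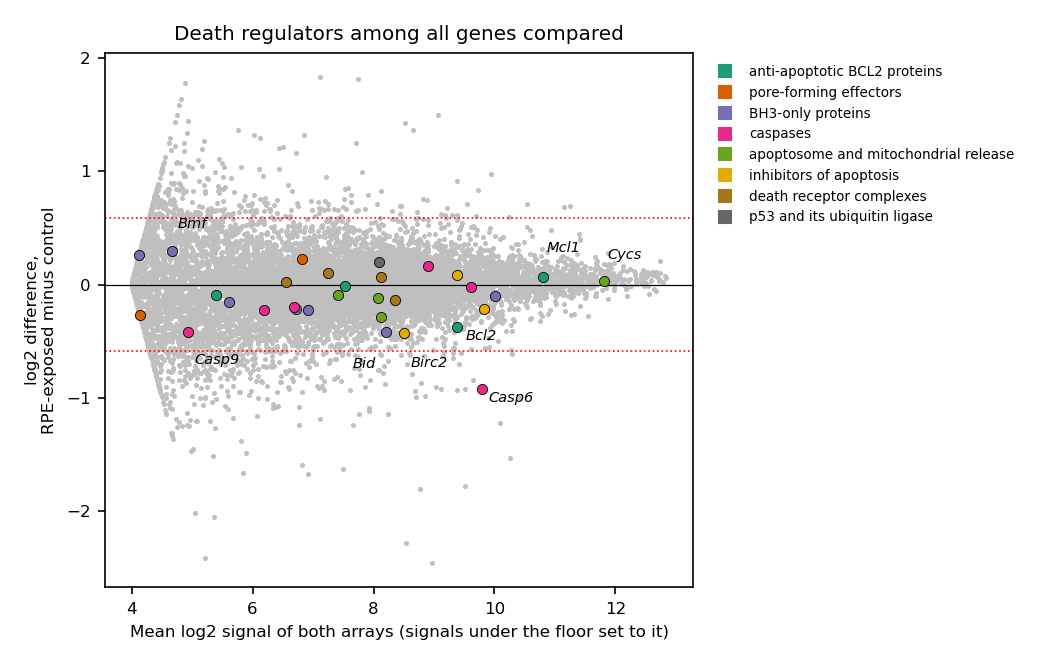
log2 difference (RPE-exposed minus control) against mean log2 signal for all 10996 genes compared (grey) and the 31 death regulators (coloured by role), with dotted lines at 1.5-fold. Casp6, at -0.92, lies apart from genes of its level, and the other 30 lie inside the dotted lines.

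The member that stood out was Casp6, which encodes caspase-6, an executioner protease known for cutting nuclear lamins. Its signal was 1223.8 in control and 646.9 in RPE-exposed T cells, so the exposed value was 52.9% of the control value. The difference was 1.89-fold lower, or -0.92 on the log2 scale, well under the like-level range of -0.36 to 0.36. Only 3 of the 550 genes of that level, Casp6 included, had a difference as low. The second probe set was dimmer and went the same way, from 57.0 to 22.3, or 2.56-fold lower, and the pair averaged -1.14 ± 0.31 (SD). All 13 B-cell markers and 15 of the 18 macrophage and dendritic-cell markers above the floor were lower on the same array. The part of those cells in the lower Casp6 signal was not tested. In bulk RNA, fewer cells of a type and less RNA per cell cannot be told apart.

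After Casp6, the lowest differences among genes with a signal of at least 100 on both arrays were those of Birc2, Bid and Bcl2, at -0.43, -0.42 and -0.37. The promoters of these 4 are shown because they are the bright members at or under -0.3, and Diablo, at -0.29, lay just outside that limit. Each sequence, from RefSeq on build GRCm38.p6, holds the 250 bases before the annotated start and is written 5′ to 3′ along the gene. For Birc2, which has 2 annotated starts, the upstream one is shown. Capitals mark the motifs found on either strand, the GC box GGGCGG and the CRE, a site for CREB and ATF factors, TGACGTCA.
Casp6, chr3:129901165-129901414 (plus strand): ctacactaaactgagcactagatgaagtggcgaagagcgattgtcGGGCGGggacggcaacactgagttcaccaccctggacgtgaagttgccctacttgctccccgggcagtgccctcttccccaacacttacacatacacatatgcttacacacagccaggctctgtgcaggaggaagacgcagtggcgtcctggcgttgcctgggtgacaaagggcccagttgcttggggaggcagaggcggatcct
Bid, chr6:120916825-120917074 (minus strand): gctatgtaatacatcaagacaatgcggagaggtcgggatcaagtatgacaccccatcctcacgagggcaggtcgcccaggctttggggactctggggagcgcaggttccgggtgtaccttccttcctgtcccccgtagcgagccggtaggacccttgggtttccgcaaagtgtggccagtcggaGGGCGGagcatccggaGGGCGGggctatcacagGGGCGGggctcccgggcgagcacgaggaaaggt
Birc2, chr9:7837058-7837307 (minus strand): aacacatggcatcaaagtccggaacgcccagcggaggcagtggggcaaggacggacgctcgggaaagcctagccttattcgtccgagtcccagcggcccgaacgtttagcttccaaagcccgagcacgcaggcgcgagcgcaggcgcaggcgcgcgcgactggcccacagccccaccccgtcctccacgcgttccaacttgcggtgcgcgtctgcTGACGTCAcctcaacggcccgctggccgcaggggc
Bcl2, chr1:106714291-106714540 (minus strand): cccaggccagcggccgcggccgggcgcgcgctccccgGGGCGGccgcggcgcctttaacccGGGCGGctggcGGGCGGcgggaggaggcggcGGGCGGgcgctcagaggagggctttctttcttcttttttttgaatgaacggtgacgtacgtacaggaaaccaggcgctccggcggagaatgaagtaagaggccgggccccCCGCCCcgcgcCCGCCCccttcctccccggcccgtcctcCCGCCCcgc

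The GC box occurred once in the Casp6 window, in 3 places in that of Bid, in 7 in that of Bcl2, and not in the Birc2 window shown. The window of the other Birc2 start held 2 GC boxes and no CRE. The GC box occurred in 32.7% of all 32851 promoter windows of the same length, and 26 of the 44 windows of 31 members held it. The CRE of Birc2 was the only such motif among the windows shown, and 1.55% of all windows held one. An AP-1 site (TGANTCA), a STAT site (TTCNNNGAA), a FOXO site (GTAAACA) and the NF-kappaB consensus were not in any of these windows. All were searched on both strands, the NF-kappaB consensus as a letter pattern with ambiguous positions. In that order, they occurred in 6.75%, 7.02%, 3.17% and 7.25% of all windows, and in 0, 1, 5 and 4 of the 44 member windows. The motifs overlapped nowhere in the windows shown. These matches describe letters in a window and say nothing of binding.

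Bcl2, the founding anti-apoptotic gene, was lower in 4 of its 5 probe sets. The probe set used gave 756.6 in control and 585.1 in exposed cells, 1.29-fold lower (-0.37), inside the like-level range of -0.44 to 0.51. The other signals were 455.0 and 244.8, 320.8 and 236.1, 253.9 and 174.5, and 166.3 and 172.9, in control and exposed cells. The lowest of these, -0.89, came from a probe set whose name ends in x, the mark of probes shared with other sequences, and the highest was 0.06. Over all 5 the mean was -0.44 ± 0.34 (SD).

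Mcl1 encodes a short-lived anti-apoptotic protein that T cells need, and its sign hung on the probe set. The brightest gave 1747.2 in control and 1835.3 in exposed cells, a difference of 0.07. The other 5 were all lower after exposure, from 1440.1 to 1211.6, 1145.2 to 972.3, 1114.5 to 902.5, 903.6 to 788.3 and 742.7 to 654.1. Their differences ran from -0.30 to -0.18, and the mean over all 6 was -0.18 ± 0.13 (SD). None of the 6 reached 1.5-fold.

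Bcl2l1 encodes BCL-xL, another anti-apoptotic protein, which is induced when T cells are costimulated. Its brightest probe set was level, at 184.5 and 182.6 (-0.01). Of the others above the floor, one gave 102.8 in control and 66.9 in exposed cells, 1.54-fold lower, and another 72.7 and 55.9. The 3 averaged -0.34 ± 0.30 (SD). Bcl2l2, which encodes BCL-w, was dim at 43.5 and 40.9 (-0.09). The 4 anti-apoptotic genes had a median of -0.05 with the probe sets used, and none of them was past 1.5-fold. That median depended on the choice of probe set, at -0.20 with the mean of all probe sets and -0.30 with the median of those above the floor.

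Among the pore-forming effectors, Bak1, which encodes BAK, gave 104.6 in control and 122.3 in exposed cells, a difference of 0.23 within its like-level range of -0.56 to 0.47, and its second probe set was level at 20.7 and 21.1. Bok, a related gene, was above the floor in control cells only, at 19.3 against 10.7, which bounds it as at least 1.21-fold lower.

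The BH3-only genes did not move in 1 direction. Bid encodes a protein that caspase-8 cuts to carry a death-receptor signal to mitochondria, and it gave 341.0 in control and 255.6 in exposed cells, 1.33-fold lower (-0.42, like-level range -0.46 to 0.41). A second probe set of Bid agreed, at 166.4 and 116.4, and the remaining one, dim and ending in x, did not, at 20.1 and 22.9. Bcl2l11 encodes BIM, the BH3-only protein that removes activated T cells when cytokines run out. Its 5 probe sets gave 1068.2 and 993.8, 598.6 and 635.6, 244.3 and 298.5, 142.9 and 191.5, and 139.1 and 123.1. So 3 were higher and 2 lower after exposure, with a mean of 0.10 ± 0.25 (SD).

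The p53-inducible pair Bbc3 (PUMA) and Pmaip1 (NOXA) each had 1 probe set and small negative differences. Bbc3 gave 51.2 and 46.1 (-0.15), and Pmaip1 gave 113.7 and 97.8 (-0.22). Bad, whose protein is held inactive by survival kinases, gave 131.0 and 112.2 (-0.22), but its other probe set gave 62.6 and 71.0 (0.18). Near the floor, Bmf gave 22.9 and 28.1 (0.30), inside a like-level range of -1.09 to 1.07. Hrk was above the floor in exposed cells only, at 15.8 and 19.0, and so at least 1.19-fold higher (0.26). This lay just outside a range of -0.23 to 0.25, which is narrowed by setting signals under the floor to the floor. The second probe set of Hrk went the other way, at 18 and 10.5. Bik was under the floor throughout. The 7 BH3-only genes compared had a median of -0.15. It was -0.02 with the median of probe sets above the floor, and -0.03 after leaving out probe sets whose names end in x, s or a.

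**Figure D3:**
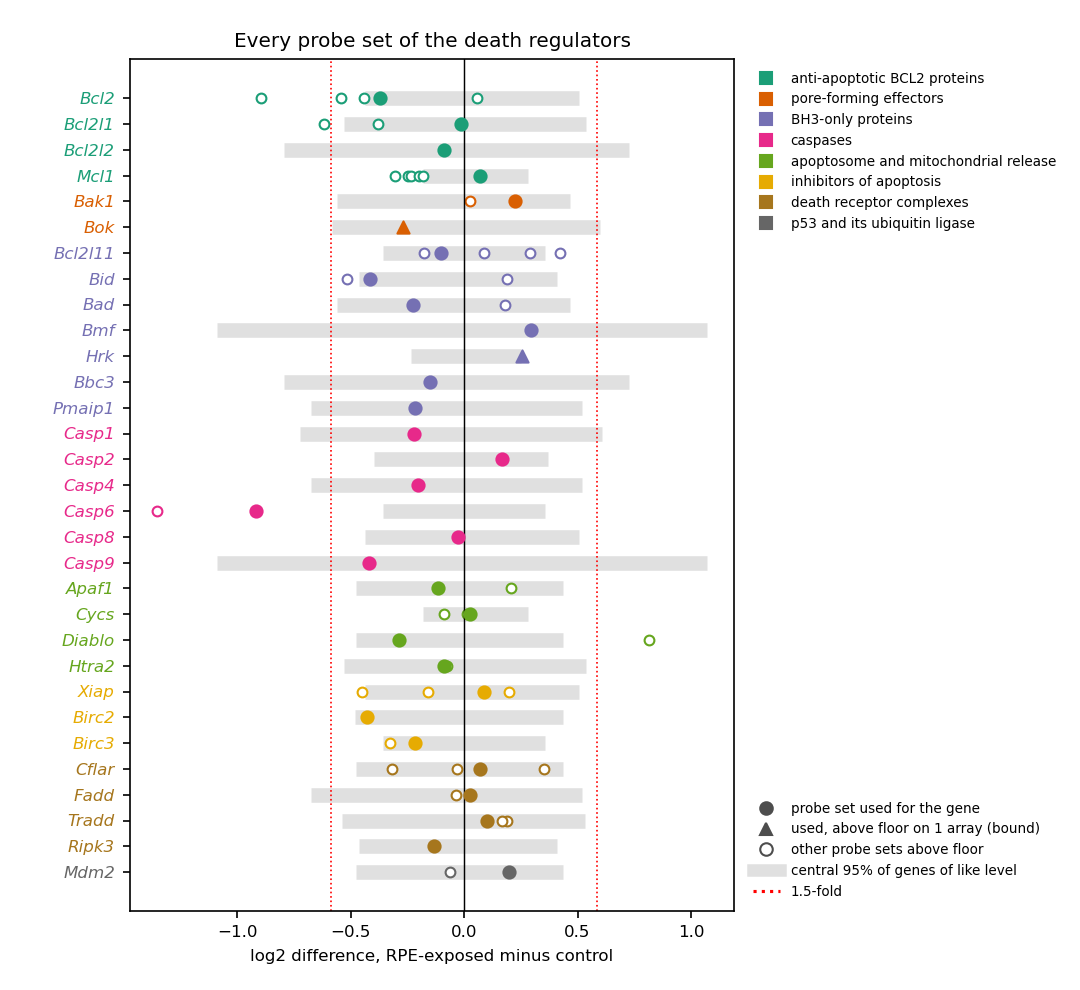
log2 difference (RPE-exposed minus control) of each member probe set measured on both arrays, with the probe set used for the gene filled and a triangle for a gene measured on a single array, over the like-level range (grey bars). Both probe sets of Casp6 lie left of the 1.5-fold line, at -0.92 and -1.35, while those of Bcl2l11, Xiap and Cflar straddle 0.

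Of the other caspases none came near the Casp6 difference. Casp8, the initiator at death receptors, was level at 793.3 and 779.0 (-0.03). Casp9, the initiator of the apoptosome, was dim at 35.4 and 26.5 (-0.42), and a second probe set gave 29.2 and 21.8 (-0.42), both within the broad like-level range of -1.09 to 1.07. Of the 6 member caspases, only Casp2, an initiator that acts with PIDD1, had a higher signal after exposure, at 450.6 and 506.2 (0.17). The inflammatory caspase genes Casp1, which matures interleukin-1, and Casp4, which senses cytosolic endotoxin, gave 78.3 and 67.1 (-0.22) and 109.7 and 95.4 (-0.20). Myeloid cells are known to express both. Of the 18 macrophage and dendritic-cell markers above the floor, 15 were lower after exposure and 3 higher, Csf1r (29.1 and 31.4) among the latter. The part of those cells in these differences was not tested.

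Genes of the apoptosome and of proteins released from mitochondria were close to level, apart from Diablo, whose probe sets disagreed in sign. Cycs, cytochrome c, gave 3581.7 and 3648.6 (0.03), and its 3 probe sets above the floor averaged -0.02 ± 0.06 (SD). Apaf1, the apoptosome scaffold, gave 281.7 and 259.8 (-0.12), with a second probe set at 100.5 and 115.8 (0.20). Htra2, a mitochondrial protease that antagonises inhibitors of apoptosis, gave 175.2 and 164.5 (-0.09). Diablo, which encodes SMAC, another such antagonist, gave 307.7 and 252.3 (-0.29), but its dim probe set went the other way, from 19.4 to 34.1 (0.81).

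The inhibitors of apoptosis differed in sign. Birc2 (cIAP1), a ubiquitin ligase that restrains cell death downstream of TNF receptors, gave 419.8 in control and 312.0 in exposed cells, 1.35-fold lower (-0.43, like-level range -0.48 to 0.44), from 1 probe set. Its paralog Birc3 (cIAP2), a target of NF-kappaB, gave 982.5 and 845.3 (-0.22), and its dim probe set gave 24.3 and 19.4. Xiap, the direct caspase inhibitor, gave 646.3 and 686.3 (0.09), and of its 4 probe sets above the floor 2 were higher and 2 lower. Birc2 and Birc3 are close paralogs, and whether their probe sets share signal was not tested.

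At the death receptor complexes the adaptor genes were level. Fadd gave 93.2 and 94.8 (0.02) and Tradd, the adaptor of TNF receptor 1, gave 146.8 and 157.4 (0.10), with all 3 of its probe sets slightly higher, at 0.15 ± 0.05 (SD). Cflar encodes cFLIP, a caspase-8 relative without protease activity that blocks the initiator. Its 4 probe sets measured on both arrays gave 272.6 and 285.9, 271.2 and 217.4, 85.9 and 109.5, and 19.7 and 19.3, with a mean of 0.02 ± 0.28 (SD). Ripk3, the kinase of necroptosis, gave 342.8 and 312.3 (-0.13). Mdm2, both the ubiquitin ligase of p53 and one of its targets, gave 255.0 and 292.6 (0.20), but its second probe set gave 242.2 and 231.6 (-0.06).

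Probe sets of 1 gene often disagreed in sign. Of the 19 members with several probe sets measured on both arrays, 5 had all of them lower after exposure (Bcl2l1, Birc3, Casp6, Casp9 and Htra2), 2 had all of them higher (Bak1 and Tradd), and 12 had both signs. Over the 66 member probe sets measured on both arrays, 42 were lower and 24 higher, 4 were at least 1.5-fold lower and 1 at least 1.5-fold higher. Over all 18228 such probe sets of the array, 51.3% were lower, 48.4% higher, 3.6% at least 1.5-fold lower and 2.9% at least 1.5-fold higher. The 4 belonged to Casp6, which had 2, and to Bcl2 and Bcl2l1, and the 1 was the dim probe set of Diablo.

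Genes around these members were read from lists of related pathway genes, as counts with no test. Over all genes compared, 3.87% were at least 1.5-fold lower and 3.13% at least 1.5-fold higher. Of 7 further genes of the BCL2 family and its partners compared, none was past 1.5-fold. The furthest were Bnip3 (387.5 and 501.4, 0.37) and Bnip2 (579.8 and 721.4, 0.32). The 4 measured probe sets of Bnip2 averaged 0.04 ± 0.29 (SD). Of 12 genes of other caspases, their nucleases and inflammasomes, 1 was 1.5-fold lower and 1 higher, with a median of 0.11. The lower one was Il1b, the inflammatory cytokine that caspase-1 matures (121.7 and 57.5, 2.12-fold), which myeloid cells make, and the higher one Il18, another substrate, at least 1.76-fold from a signal under the floor in control cells. Il1b (-1.08) lay under its like-level range of -0.72 to 0.61, while Il18 (0.82) was inside its range of -0.91 to 0.91. Casp14 gave 36.8 and 49.1 (0.42).

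Xaf1, an interferon-inducible antagonist of XIAP, had the largest positive difference of the 7 further inhibitor-of-apoptosis genes and partners, at 159.8 and 317.9, 1.99-fold higher (0.99, like-level range -0.52 to 0.46). Birc5, survivin, which acts in mitosis, followed at 0.37 and lay above its like-level range of -0.18 to 0.28. No other gene of that list was past 1.5-fold, and the median was 0.06.

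Of 17 death receptor, ligand and adaptor genes, 2 were at least 1.5-fold lower and 1 higher, and all 3 were bounds against the floor. They were Tnf (85.1 in control cells, at least 5.32-fold lower), the death receptor gene Tnfrsf21 (26.1, at least 1.63-fold lower) and Faim2 (26 in exposed cells, at least 1.64-fold higher). Fas and Fasl, the pair through which activated T cells kill each other, were near level at 171.3 and 165.3 (-0.05) and 305.9 and 274.2 (-0.16). The furthest of those above the floor on both arrays were Tnfrsf25 (-0.37) and Tnfrsf1b (0.36).

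In the necroptosis and TNF-complex list of 15 genes, Tnfaip3, the ubiquitin-editing brake on NF-kappaB, was 1.87-fold lower (720.6 and 385.3) and Zbp1, a nucleic acid sensor that engages RIPK3, was 1.53-fold higher (510.2 and 781.2), and the median was -0.04. Tnfaip3 and Zbp1 were both outside their like-level ranges. Of 28 p53 targets and regulators, 3 were at least 1.5-fold lower and 1 higher, with a median of -0.09. These were Plk2 (71.3 and 41.8), Gadd45a (29.0 and 17.2) and Zmat3 (216.1 and 143.3), and the cell-surface gene Perp, at least 1.51-fold higher from under the floor. Among them only Zmat3 (-0.59) lay outside its like-level range, of -0.53 to 0.54. Over all genes compared, the shares were 3.87% lower and 3.13% higher. The cell-cycle inhibitor gene Cdkn1a, the best known p53 target, gave 461.9 and 402.7 (-0.20), and its 2 measured probe sets averaged -0.08 ± 0.17 (SD).

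All 16 mitochondrial membrane genes were within 1.5-fold, with a median of -0.05 and extremes of -0.24 for the fusion gene Opa1 and 0.23 for the channel gene Vdac3. Of 24 genes of T-cell survival signalling, only Il4ra, the interleukin-4 receptor chain, was past 1.5-fold (592.8 and 324.7, 1.83-fold lower), and the median was 0.01. Myc gave -0.56. The interleukin-7 receptor gene Il7r, whose signal maintains BCL2, gave 1006.1 and 1086.3 (0.11), and its 2 measured probe sets averaged 0.04 ± 0.11 (SD).

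**Figure D4:**
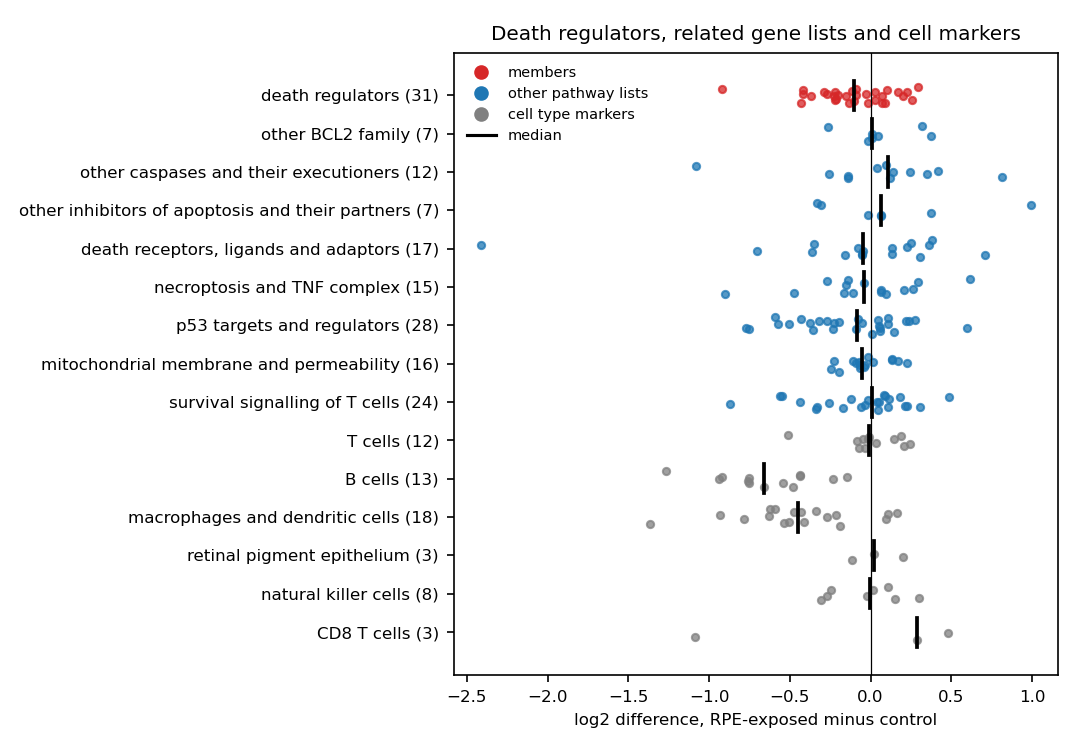
log2 difference (RPE-exposed minus control) of each gene above the floor on at least 1 array, by list, with the number of genes in brackets and the median as a black bar. The death regulators (median -0.10) and the related pathway lists (medians from -0.09 to 0.11) lie near 0, while the B-cell (-0.66) and macrophage and dendritic-cell (-0.45) markers lie to the left.

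The sign of a member's difference was checked under other floors, scalings and choices of probe set. Of the 31 members, 20 kept their sign in every one of the up to 9 alternatives that could be computed for them. Of these, 16 were lower throughout, Casp6 (from -1.14 to -0.90), Bcl2 (from -0.44 to -0.36), Bid (from -0.42 to -0.25) and Birc2 (from -0.43 to -0.41) among them, and 4 were higher throughout, namely Bak1, Bmf, Casp2 and Tradd. The other 11, which include Mcl1, Bcl2l11, Xiap, Cflar, Cycs, Diablo and Mdm2, changed sign in at least 1 alternative. For members with 1 probe set, Birc2 and Casp2 among them, the choice of probe set could not change the sign. Birc2 was also above every floor used, so the other floors gave the same value.

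**Figure D5:**
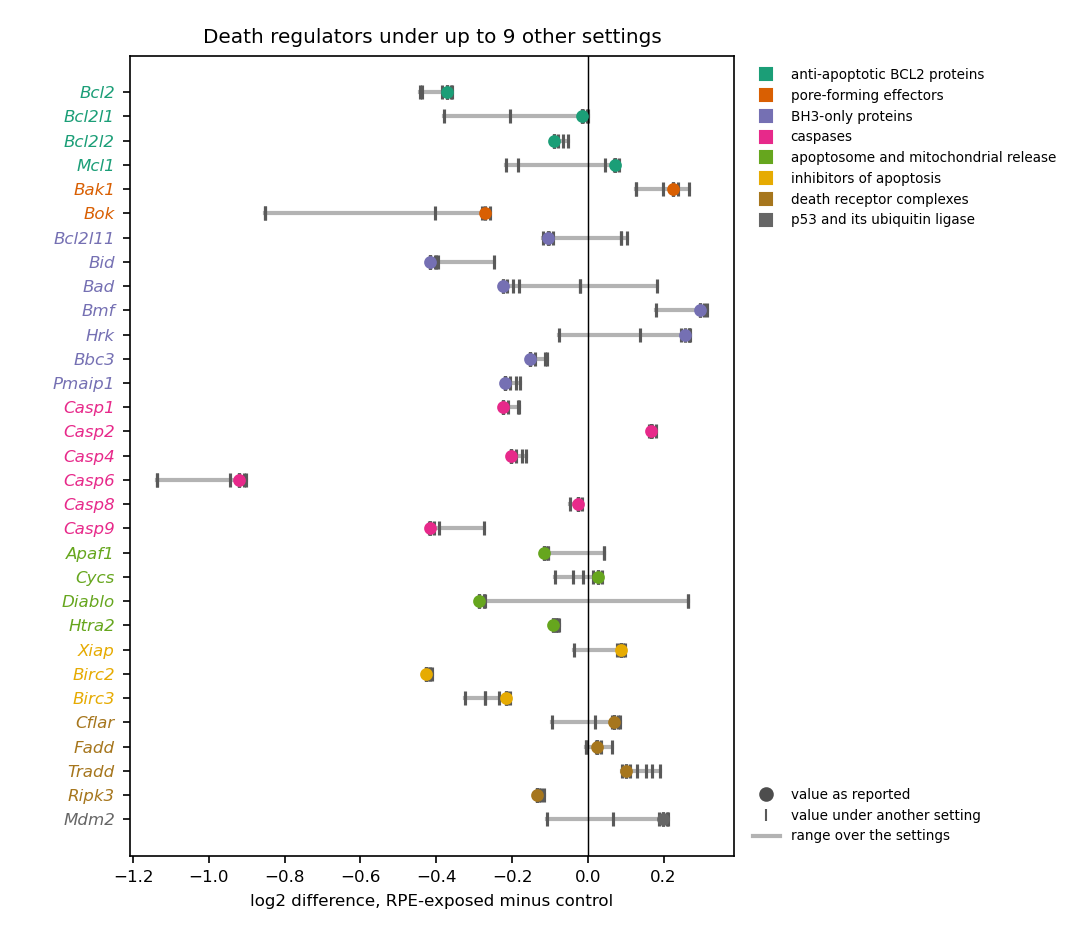
log2 difference (RPE-exposed minus control) of each of the 31 death regulators as reported (filled circles) and under up to 9 other settings of floor, scaling and probe-set choice (ticks, joined by a line). Casp6 lies between -1.14 and -0.90 throughout, and lines that cross 0 mark the 11 genes that change sign.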

How the data were processed

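The authors deposited linear intensities, 1 per probe set and array, for 45101 probe sets, 64 of them manufacturer's controls. Biotin-labelled cRNA was made by in vitro transcription, per the labels' protocols, and the summarization software is not given in the sources used here. Both arrays had a trimmed mean of 100 after dropping 2% of probe sets at either end, and the values reported were left at that scale. Gene names came from the platform annotation, in which 34958 probe sets name 1 gene, 34754 of them with an identifier found in the RefSeq table of GRCm38.p6. No coordinates of probe sets were used.

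Log2 differences and promoter searches were computed in Python 3.11.15 with numpy 2.4.6 and pandas 2.3.3, and plots in matplotlib 3.10.9. Of 18194 genes, 10000 were measured on both arrays and 996 on 1. For the latter the signal under the floor was set to it, and the fold is a bound. A single array per group allowed no test. The gene steps were tested on simulated data. Every member is named. In each related list, the genes named were those past 1.5-fold and the 2 furthest from 0 above the floor on both arrays. Fas, Fasl, Cdkn1a, Il7r, Tnfrsf9 and Cd28 were named beyond that rule, after their values were seen. The members and lists were chosen with earlier results of these data known.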

Additional observations from a re-analysis of the deposited data

How the results depend on the processing

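In the 9 alternatives, the count of members at least 2-fold higher stayed at 0, as did that of members at least 1.5-fold higher. The count at least 2-fold lower was 0 as reported and 1, Casp6, with the mean of all probe sets and with the median of probe sets above the floor, since its dim second probe set then enters. The count at least 1.5-fold lower was 1 as reported and 2 when the floor was dropped or lowered to the 25th percentile, since the bound of Bok then became a difference of -0.85. The members' median of -0.10 ran from -0.11 to -0.08, and 15 of 24 to 21 of 28 members were lower. Over all genes the 1.5-fold counts moved far more, from 344 higher and 426 lower to 64 and 94 under a floor at the 75th percentile, and to 2648 and 2475 with no floor. The small medians of 4 related lists (inhibitors of apoptosis, death receptors, necroptosis and T-cell survival signalling) changed sign in at least 1 alternative. No paired analysis was possible because each group held 1 array, and no array could be left out. Signal over background limits Bok, Hrk, Bmf, Bik and Casp9, whose signals were near the floor, and detection calls were not used here.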
